A study of Mus musculus with 50 samples.

Results

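The 50 mouse mammary tumours fell on opposite sides of a wide gap in the level of D730005E14Rik, a long non-coding RNA gene that lies beside the antiviral gene Apobec3 on chromosome 15. The sides were chosen by that measured level: 19 of the 50 tumours had D730005E14Rik at or above 6.8 on the log2 scale (the high side) and 31 had it below (the low side). The data are 1 Affymetrix array per tumour biopsy, taken before drug treatment. The labels put all 50 tumours in 1 group, so the sides are defined by measurement and not by a label. Which drug came afterwards is unclear, since the title of the series names doxorubicin while its treatment protocol names docetaxel.

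All tumours on both sides arose spontaneously in female mice with the same strain label, F1Bx. It stands for offspring of C57BL/6J x FVB/NJ hybrids crossed back to the FVB/NJ strain with MMTV-Erbb2. In this transgene the viral promoter of mouse mammary tumour virus directs the receptor tyrosine kinase ErbB2 to the epithelium of the mammary gland. At any locus such offspring inherit either 2 FVB/NJ copies or 1 copy from each strain. The genotype of each mouse at this locus, its age and any array batch are not given in the sources used here. Each tumour is listed under a different mouse number, and the number of tumours sampled per mouse is not otherwise stated. The p-values therefore measure only the spread between these tumours. Erbb2 itself had a mean log2 level of 11.52 ± 0.64 (SD, n = 19) on the high side and 11.61 ± 0.48 (SD, n = 31) on the low side, and the epithelial keratin gene Krt8 had 9.97 ± 0.31 and 9.92 ± 0.54. A biopsy also holds stroma, vessels and immune cells of the host.

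Apobec3 encodes a cytidine deaminase that is packaged into retroviral particles and limits infection by mouse mammary tumour virus and murine leukaemia viruses. It is the gene behind the resistance trait known as Rfv3, and alleles of inbred strains differ in their expression and splicing. D730005E14Rik is annotated as a non-coding gene with no established function. RefSeq places D730005E14Rik on the minus strand, with a span that overlaps the span of Apobec3 on the plus strand. The span of Apobec3 in turn overlaps that of Cbx7, on the minus strand.

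The start regions of these 3 overlapping genes are shown because D730005E14Rik, Apobec3 and Cbx7 were all higher on the same side of the split. Each is 300 bases of the RefSeq build GRCm38.p6, written 5′ to 3′ on the strand of its gene. The windows are chr15:79893089-79893388 (minus strand) for D730005E14Rik, chr15:79892158-79892457 (plus strand) for the first listed start of Apobec3 and chr15:79932597-79932896 (minus strand) for Cbx7. Capitals mark a match to the interferon regulatory factor type motif GAAANNGAAA, searched on both strands.
D730005E14Rik: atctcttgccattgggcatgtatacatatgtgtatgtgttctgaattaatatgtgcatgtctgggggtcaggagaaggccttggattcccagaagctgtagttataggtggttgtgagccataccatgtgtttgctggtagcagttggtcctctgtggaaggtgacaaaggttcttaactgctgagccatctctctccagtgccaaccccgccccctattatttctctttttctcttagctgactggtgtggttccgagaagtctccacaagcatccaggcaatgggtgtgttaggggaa
Apobec3: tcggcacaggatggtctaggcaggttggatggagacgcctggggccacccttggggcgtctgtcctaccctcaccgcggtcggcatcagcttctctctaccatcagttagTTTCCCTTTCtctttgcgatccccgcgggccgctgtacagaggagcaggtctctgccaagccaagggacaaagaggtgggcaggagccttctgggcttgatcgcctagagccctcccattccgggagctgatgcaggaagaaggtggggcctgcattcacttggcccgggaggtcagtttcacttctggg
Cbx7: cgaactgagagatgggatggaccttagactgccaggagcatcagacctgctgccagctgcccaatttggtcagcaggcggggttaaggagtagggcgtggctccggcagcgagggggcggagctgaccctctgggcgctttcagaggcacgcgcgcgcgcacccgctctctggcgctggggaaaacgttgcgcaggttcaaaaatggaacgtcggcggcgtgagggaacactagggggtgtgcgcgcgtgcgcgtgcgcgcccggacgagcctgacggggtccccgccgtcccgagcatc

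The IRF-type letters occurred in the first window of Apobec3 (read on the opposite strand) and in 3.44% of 32851 promoter windows of this length. A second listed start of Apobec3 (chr15:79894773-79895072, not shown) held 0 matches to this motif and 1 CCAAT box. The windows of D730005E14Rik and Cbx7 held no match to the IRF-type motif either. Each of them held 1 GC box (GGGCGG, found in 35.7% of the windows) and 1 CCAAT box (CCAAT, in 37.4%), on either strand and with no overlap between them. A match describes letters and is no evidence that a factor binds, and the bases read by the array probes are not given in the sources used here.

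The level of D730005E14Rik ran from 7.30 to 9.22 on the high side, with a median of 8.02. On the low side it ran from 4.42 to 5.83, with a median of 5.25. These values chose the sides, so their difference of 2.89 log2 is a description with no test. The tumours nearest the threshold were mid23, at 5.83, and mid71, at 7.30, which leaves a gap of 1.47 log2 with no tumour in it. The midpoint of a 2-component mixture, at 6.60, falls in this gap, so it put the same 19 tumours on the high side.

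Apobec3 was also higher on the high side, with values from 9.38 (mid71) to 10.48 (mid54) and a median of 9.81. On the low side it ran from 8.12 (mid79) to 9.71 (mid115), with a median of 9.02. The means were 9.90 ± 0.33 (SD, n = 19) and 9.09 ± 0.42 (SD, n = 31), a difference of 0.81 log2 or 1.76-fold. Apobec3 thus overlapped between the sides where D730005E14Rik did not. All 19 high-side tumours lay above the median of the low side, 13 of them lay above every low-side tumour, and 21 of the 31 low-side tumours lay below every high-side tumour. Because the gene gave the split its name, no test was made. Each of the 2 genes is read by 1 probe set.

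**Figure D1:**
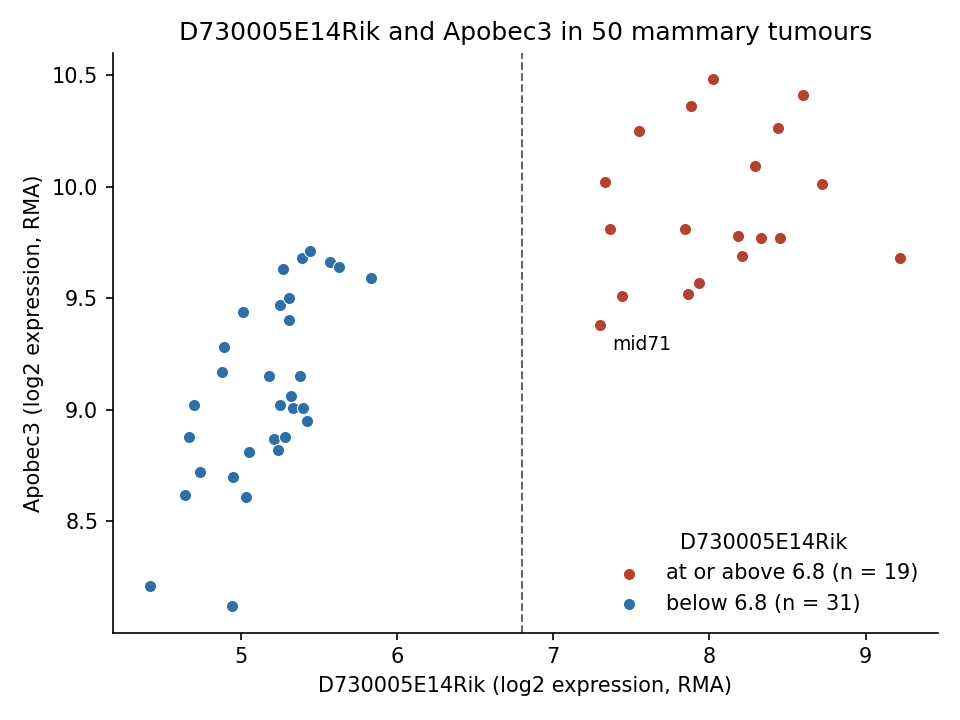
Log2 expression of Apobec3 against that of D730005E14Rik, 1 point per tumour, with the dashed line at 6.8. The 19 red tumours and 31 blue tumours are separated by a gap of 1.47 log2 on the horizontal axis, while on the vertical axis the sides overlap between 9.38 and 9.71.

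Within the sides the relation of the 2 genes is a description with no test, since D730005E14Rik chose the sides. Over the 31 low-side tumours Pearson's r was 0.666 and the Spearman rank correlation 0.630, and r was 0.566 without mid177 and mid131, the tumours with D730005E14Rik farthest from the median. Over the 19 high-side tumours r was 0.196 and the rank correlation 0.215, and r was 0.228 without mid130 and mid71. The difference between the 2 correlations was not tested. On the low side mid79, the tumour with the lowest Apobec3, also had the lowest mean correlation with the other arrays (0.916), and the part of this array in the correlation was not tested.

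Away from this pair, 3 genes differed between the sides, and all 3 lie on chromosome 15. Cbx7, a chromodomain subunit of Polycomb repressive complex 1, and Ttll1, which adds glutamate chains to tubulin, were higher on the high side. Rpl3, a protein of the large ribosomal subunit, was lower. In the limma fit over all genes (moderated statistics, Benjamini-Hochberg adjustment, called under 0.05), these were 3 of 16633 genes (0.018%), with 2 called higher (0.012%) and 1 lower (0.00601%). They were 3 of the 694 tested chromosome 15 genes (0.432%) and 0 of the 15814 placed on other chromosomes (0%). The rest had no place in the gene table.

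Cbx7 had values from 6.37 to 7.39 on the high side (median 7.06) and from 6.31 to 7.22 on the low side (median 6.59). The sides overlapped, with 17 of the 19 high-side tumours above the low-side median and 30 of the 31 low-side tumours below the high-side median. Their means were 7.01 ± 0.28 (SD, n = 19) and 6.59 ± 0.19 (SD, n = 31). The difference was 0.42 log2 or 1.34-fold (95% interval 0.29 to 0.55, limma adjusted p = 0.000371). Cbx7 is the second tested gene from D730005E14Rik, next after Apobec3, and has 1 probe set. Its low-side maximum of 7.22 was in mid79, the array least like the others.

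Ttll1 lies 67 tested genes beyond D730005E14Rik, and its values ran from 7.42 to 8.55 on the high side (median 8.10) and from 6.99 to 8.37 on the low side (median 7.66). Again the sides overlapped at the edges, with 18 of 19 high-side tumours above the low-side median and 28 of 31 low-side tumours below the high-side median. The means were 8.11 ± 0.27 (SD, n = 19) and 7.64 ± 0.31 (SD, n = 31). The difference was 0.47 log2 or 1.39-fold (95% interval 0.30 to 0.64, limma adjusted p = 0.00407).

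Rpl3, the fourth tested gene from D730005E14Rik, ran from 10.17 to 11.02 on the high side (median 10.59) and from 9.92 to 11.34 on the low side (median 10.99). Of the 19 high-side tumours 18 lay below the low-side median, and 14 of the 31 low-side tumours lay above every high-side tumour. The means were 10.59 ± 0.24 (SD, n = 19) and 10.97 ± 0.28 (SD, n = 31), so the level fell by 0.38 log2 (95% interval -0.53 to -0.23, limma adjusted p = 0.0274). This result rests on 1 of 3 probe sets. The other 2, at mean levels of 4.43 and 7.75, differed by -0.02 and 0.02 log2 (limma adjusted p = 1.0 for each, over all probe sets).

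**Figure D2:**
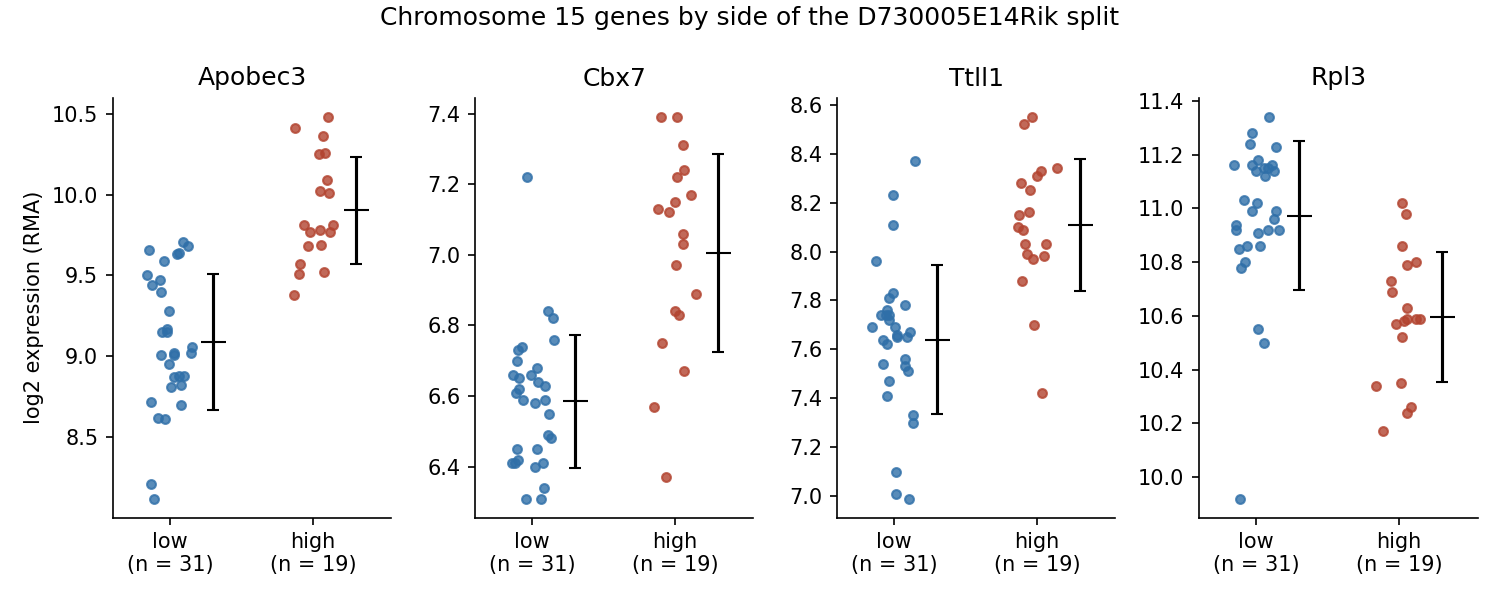
Log2 expression of Apobec3, Cbx7, Ttll1 and Rpl3 in each tumour of the low side (blue, n = 31) and high side (red, n = 19), each panel with its own axis, and beside the points the mean with its SD. Apobec3, Cbx7 and Ttll1 sit higher on the high side and Rpl3 sits lower, and in each panel the sides overlap.

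The calls depend in part on how the values are handled. On rank-based normal scores per gene none of the 3 was called, with limma adjusted p = 0.122 for Cbx7 and Ttll1 and 0.284 for Rpl3. These scores give every gene the same spread before limma moderates the variances across genes. The part of this step in the lost calls of the 3 genes was not tested. The tumours were also split by Apobec3 itself, at 9.34, with 29 tumours at or above (all 19 of the high side among them). In that split none of the 3 was called either (limma adjusted p = 1.0 for each). Apobec3 did not reach the BIC difference over 10 that was required of genes with separate levels. Its cut also joined low-side tumours to the 19, so that run is not an equal alternative to the split. In the 13 alternatives to the fit of all genes the direction of all 3 was kept, while 1 of the other probe sets of Rpl3 had the opposite sign (0.02, given above). Of these 13, Cbx7 and Ttll1 were called in 11 and Rpl3 in 8. Several of the 13 could not change the difference, so they give no separate support. Other filters, other probe set rules and the mixture midpoint left Cbx7 and Ttll1, with 1 probe set each, at the same difference. The filters, the probe set of largest SD and the midpoint also left that of Rpl3 the same.

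A tumour's side for D730005E14Rik did not fix its level of the other genes. Counting a tumour as crossing when its level was nearer the mean of the other side, 8 tumours crossed for Apobec3 (1 high-side, 7 low-side), 7 for Cbx7 (4 and 3), 6 for Ttll1 (2 and 4) and 9 for Rpl3 (5 and 4). Of the 19 high-side tumours 9 crossed for none of the 4 genes, and of the 31 low-side tumours 16. The most discordant was mid71, the high-side tumour with D730005E14Rik nearest the threshold, which crossed for Apobec3, Cbx7 and Ttll1. It was also the lowest of its side for these 3 genes and for Rpl3. On the low side mid47 crossed for Apobec3 and Ttll1, mid99 for Apobec3 and Cbx7, and mid79 for Cbx7 and Rpl3.

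Among the tested genes closest to the locus only Cbx7 and Rpl3 were called. Before D730005E14Rik, the difference between sides was 0.09 log2 for the deubiquitinase gene Josd1, 0.00 for Gtpbp1, which encodes a GTP-binding protein, 0.02 for Sun2 of the nuclear envelope, -0.09 for Gm16576 and -0.03 for Dnal4, a dynein light chain. Beyond Cbx7, the growth factor gene Pdgfb differed by 0.23 and Snord83b, a small nucleolar RNA gene, by -0.09. None of these 7 was called (limma adjusted p = 1.0 for each). The 3 called genes were therefore not an unbroken run along the chromosome: Pdgfb lay between Cbx7 and Rpl3, and uncalled genes lay between Rpl3 and Ttll1.

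Of all 694 chromosome 15 genes tested, 41 (5.91%) had an unadjusted p under 0.05, against 373 (2.36%) of the genes on other chromosomes and 415 (2.50%) of all 16633. When no gene differs, a share of 0.05 passes on average, so 5.91% is close to this and 2.36% is under it. By distance the share was 10.2% (5 of 49) within 25 tested genes of D730005E14Rik, 9.33% (14 of 150) from 26 to 100, 3.50% (7 of 200) beyond that to 200 and 5.08% (15 of 295) farther away. The called genes Cbx7 and Rpl3 are among the 5 nearest and Ttll1 is among the 14. Over all chromosomes 0.884% of genes were higher on the high side at an unadjusted p under 0.05 and 1.61% (268 genes) were lower. On chromosome 15 the numbers were even, at 20 higher and 21 lower. Chromosome 18, which is not linked to the locus, had as large a share, 5.95% (25 of 420, 19 of them higher), while the other chromosomes ranged from 1.15% to 3.94%.

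After the 3 called genes, the smallest p-values on chromosome 15 belonged to Slc25a17, Micall1, Zfp647, Tst and Prr5, and none of them was near the threshold after adjustment. Slc25a17, a peroxisomal carrier of coenzyme A and related cofactors, had a difference of 0.26 log2 (median 8.94 against 8.62, limma adjusted p = 0.728) and was called when arrays were weighted by quality (limma adjusted p = 0.0362) and with 4 cell type scores as covariates (limma adjusted p = 0.0481). Micall1 differed by 0.20, the zinc finger gene Zfp647 by -0.20 and the sulfurtransferase gene Tst by -0.33 (limma adjusted p = 0.968 for Micall1 and 1.0 for the others). Prr5, a subunit of the mTORC2 kinase complex, had medians of 8.67 and 9.16 and a difference of -0.48 (limma adjusted p = 1.0). With D730005E14Rik and Apobec3 left out, the largest difference in size on the chromosome was that of Adcy8, an adenylyl cyclase, at -0.79 (limma adjusted p = 1.0), 174 tested genes before the locus. C1qtnf3, 325 tested genes before it, followed at 0.54 with the same adjusted p from limma. Adcy8 and C1qtnf3 were named after their values were seen.

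**Figure D3:**
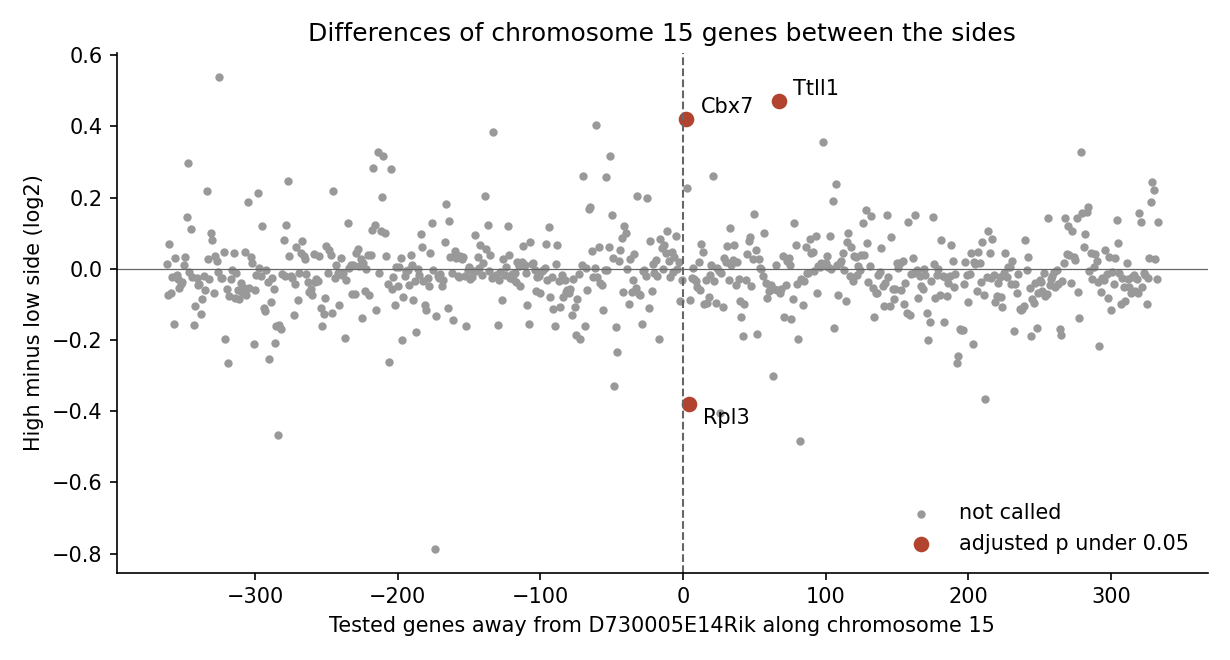
Difference between the high and low sides (log2) for each tested chromosome 15 gene, placed by its number of tested genes from D730005E14Rik (dashed line). Red points are Cbx7, Ttll1 and Rpl3, the 3 genes with a limma adjusted p under 0.05; most grey points lie near 0 at all distances, and D730005E14Rik and Apobec3 are left out.

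The level of the chromosome as a whole overlapped between the sides. Its level per tumour, the median deviation of chromosome 15 genes minus that of other autosomes, was -0.0081 ± 0.0284 (SD, n = 19) on the high side and 0.0059 ± 0.0580 (SD, n = 31) on the low side. The difference of -0.0140 was within the spread of tumours (two-sided permutation test with 100000 resamples, p = 0.351). Both tumours with the highest chromosome 15 level, mid47 at 0.225 and mid145 at 0.157, were on the low side. For chromosome 18 the same level was 0.0534 ± 0.207 and -0.0298 ± 0.0903, with 4 high-side and 2 low-side tumours above 0.1. Its part in the share of chromosome 18 genes was not tested.

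No gene on another chromosome was called by limma, and 373 had an unadjusted p under 0.05, of which 246 were lower on the high side. The median size of a difference was 0.0417 log2 and the 95th percentile 0.188. For 15108 of the 15814 genes (95.5%) the 95% interval of the difference lay within 1.5-fold, and for 15698 (99.3%) within 2-fold. The smallest p-values belonged to Hexim2, an inhibitor of the elongation factor P-TEFb, with means of 4.97 ± 0.16 (SD, n = 19) and 5.14 ± 0.13 (SD, n = 31), and to Stx11, a syntaxin of cytotoxic lymphocytes, with 5.76 ± 0.19 and 5.56 ± 0.15. Both had a limma adjusted p of 0.413, and they were named after their values were seen.

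No other deaminase was called. Of 11 tested members beside Apobec3, none was called, and their median difference was 0.00 log2, against -0.01 over all genes. The RNA-editing gene Apobec1 differed by 0.18, its muscle relative Apobec2 by 0.00, the adenosine deaminases of double-stranded RNA Adar and Adarb1 by 0.06 and 0.00, and Adarb2 by 0.03. The tRNA deaminase genes Adat1 and Adat2 differed by -0.05 and -0.12, and Adad2 by 0.02. Of the genes that deaminate free nucleosides and nucleotides, Cda differed by 0.36 and Dctd by -0.11, and Cdadc1 differed by -0.02. The widest of these was Cda, which ran from 5.65 to 8.66 on the high side (median 6.29) and from 5.52 to 7.72 on the low side (median 6.06), so the sides overlapped, with 2 high-side tumours above every low-side one. Apobec4 and Adad1 fell under the filter on low levels, at means of 3.42 and 3.84.

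The genes that act with or beside Apobec3 against retroviruses gave no call. None of 19 retroviral restriction factor genes was called, with a median difference of 0.08 and the highest for Mx2, an interferon-induced GTPase, at 0.33. Bst2, which tethers budding virions to the cell, had means of 7.74 ± 1.23 (SD, n = 19) and 7.43 ± 1.31 (SD, n = 31), a spread far wider than the difference. The dNTP hydrolase gene Samhd1 differed by 0.14. None of 7 retroviral entry receptors was called (median -0.07, with the transferrin receptor gene Tfrc lowest at -0.24). Of 22 uracil and base excision repair genes, which remove the product of cytidine deamination from DNA, none was called (median -0.02). Ung, the main uracil glycosylase, differed by -0.01 and the glycosylase gene Neil2 by 0.15, with means of 5.88 ± 0.16 and 5.73 ± 0.15.

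The interferon response, which raises many restriction factors together, was not called in any of 26 genes. Its median difference was 0.22 log2, from -0.09 for Cmpk2 to 0.55 for Usp18. Usp18 had means of 8.11 ± 1.26 (SD, n = 19) and 7.55 ± 1.57 (SD, n = 31), so tumours within a side differed by more than the sides did. The score of the list, the mean of its standardised genes, ran from -1.18 to 1.44 on the high side (median -0.187) and from -1.50 to 1.63 on the low side (median -0.160). The ranges overlapped widely and the medians were in the opposite order to the gene differences. None of 19 nucleic acid sensors (median 0.02), 10 MHC class I genes (median -0.07) or 7 MHC class II genes (median -0.05) was called.

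No cell type marker was called. All 18 macrophage genes had a higher mean on the high side, by 0.04 (Cd163) to 0.44 (Cd14) with a median of 0.25, and 2 of them had an unadjusted p under 0.05, against 0.884% of all genes higher at that level. Their score ran from -1.21 to 2.37 on the high side and from -1.33 to 2.83 on the low side, with medians of 0.0301 and -0.240. Markers of 1 cell type can move together from biopsy to biopsy. The 18 genes are therefore not separate observations, and their shared direction was not tested. The 21 fibroblast genes had a median difference of 0.18, the 11 basal and myoepithelial genes 0.21 and the 12 squamous genes 0.17, with none called. At an unadjusted p under 0.05, 2 of the basal genes, 1 of the squamous genes and 1 of 6 neutrophil genes were higher. The medians of the T and NK cell list (16 genes), B and plasma cell list (10), endothelium (18), adipocytes (12) and luminal epithelium (17) lay between -0.05 and 0.01, and proliferation genes (27) had -0.07. In a bulk biopsy, fewer cells of a type and less RNA per cell cannot be told apart. Single tumours set some ranges: the squamous score reached 5.95 in the high side, against a highest value of 0.176 in the low side. Neither neutrophil genes (6, median 0.24), skeletal muscle genes (13, median 0.11) nor milk protein genes (12, median -0.04) held a called member.

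Gene families of chromosome 15 gave no further calls. The 16 tested type II keratin genes had a median difference of 0.05 and the 10 LY6 genes 0.01. Of 55 genes in a list of the Apobec3 region, Cbx7 was called higher and Rpl3 lower, with a median of 0.02. Of the 3 CBX Polycomb genes tested Cbx7 alone was called, and Cbx2 differed by 0.00.

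**Figure D4:**
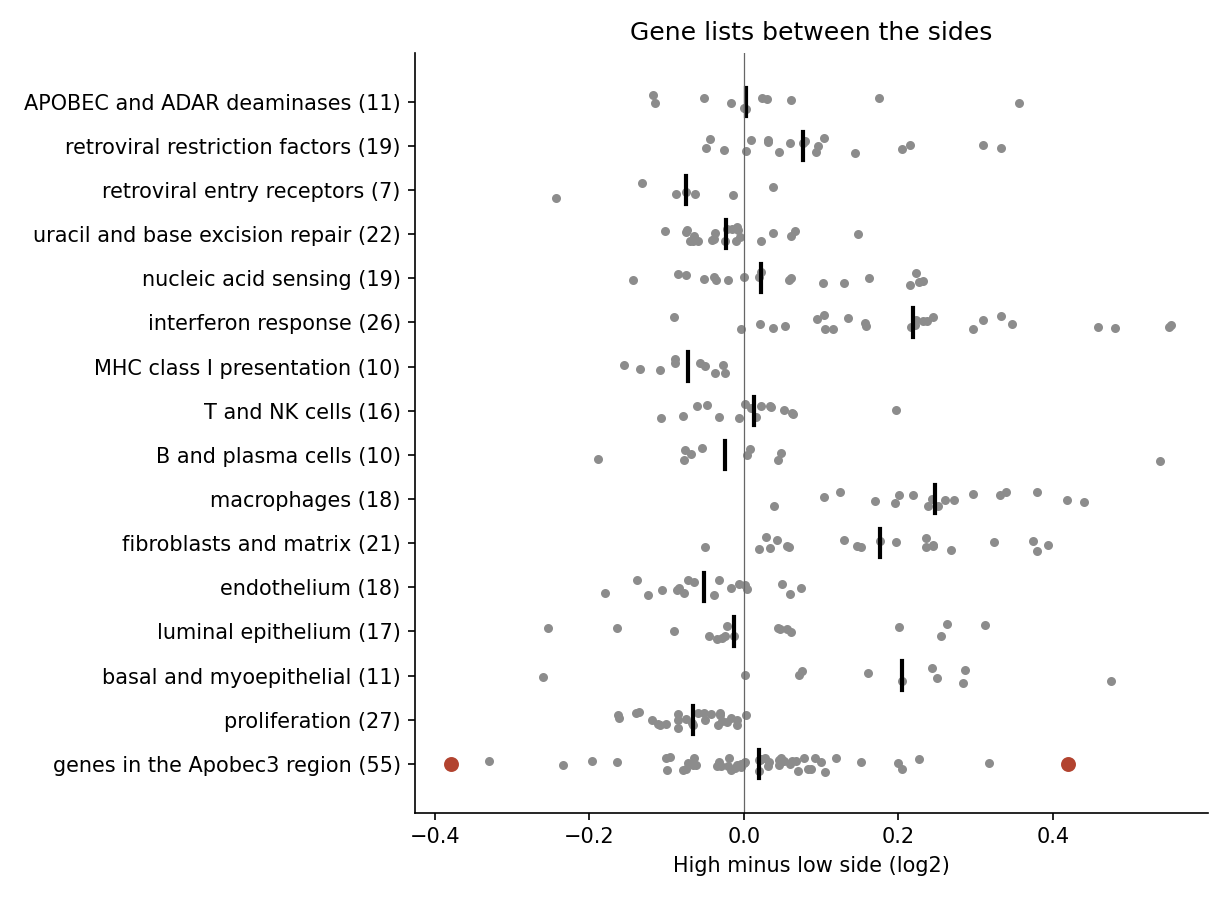
Difference between the high and low sides (log2) for each tested member of 16 gene lists, with the number tested in brackets; black bars are list medians and red points the called genes. Red points occur only in the list of the Apobec3 region, and the macrophage, interferon and basal lists sit to the right of 0 with no called member.

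Within the sides, many genes followed Apobec3. With Apobec3 standardised within each side and the side in the model, 1010 of 16633 genes rose with it (6.07%) and 606 fell (3.64%) in limma with Benjamini-Hochberg adjustment, and 4561 (27.4%) had an unadjusted p under 0.05. These counts changed widely with the setting, and the cause was not tested. With every array kept, 38 genes were called with 4 cell type scores as covariates and 722 on rank-based normal scores. Without mid60, mid79 and mid100, the 3 arrays whose mean correlation with the others was under 0.96, the total fell from 1616 to 198, of which 164 were among the 1616, and without mid60 and mid79 alone it was 257 (229 shared). The low side alone gave 2331 and the high side alone 0, with 1140 at an unadjusted p under 0.05. A test of different slopes on the 2 sides called 0 genes, with 1663 at an unadjusted p under 0.05.

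The 10 genes with the largest statistic in each direction kept their sign and their call without the 3 arrays, and 12 of these 20 were called with 4 cell type scores as covariates. The 20 were picked by the fit on all arrays, and these runs reuse its arrays, so they give no separate support. All 20 kept their sign on each side alone, with 20 called in the low side and 0 in the high side. Farp2, a FERM domain gene on chromosome 1, rose most clearly, by 0.35 log2 per SD of Apobec3 (95% interval 0.25 to 0.45, limma adjusted p = 7.19e-05), with r = 0.676 on the high side and 0.723 on the low side. Prr5, introduced above, rose by 0.32 (limma adjusted p = 0.0014), and Arhgap39, also of chromosome 15, by 0.27. The others that rose were Dcakd (0.15), the centrosomal gene Cep126 (0.23), the G protein subunit gene Gng7 (0.26), the ubiquitin ligase subunits Fbxl2 (0.20) and Cul7 (0.19), Gm4117 (0.22) and Pigh (0.22), which acts in the synthesis of GPI anchors.

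Genes that fell as Apobec3 rose were led by the mitochondrial phosphatase gene Pptc7, with a slope of -0.20 log2 per SD (95% interval -0.27 to -0.13, limma adjusted p = 0.0014) and r = -0.647 on the high side and -0.646 on the low side. Pik3ca, the catalytic p110-alpha subunit of PI 3-kinase, had a slope of -0.12, and Rgs4, a regulator of G protein signalling, had the steepest of these 10 at -0.33. The autophagy genes Sh3glb1 and Atg3 had slopes of -0.19 and -0.16. The others were the secretory pathway kinase gene Fam20c (-0.25), Card19 (-0.16), Dnajc21 of ribosome assembly (-0.17), Mdfic (-0.13) and the transcriptional repressor gene Bcl6b (-0.28). Without mid60, mid79 and mid100 the slopes of Bcl6b and Sh3glb1 were smaller, at -0.16 and -0.11, and with the cell type scores neither was called (limma adjusted p = 0.131 for each). The correlation on each side is taken from tumours that share arrays with the fit and is a description.

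**Figure D5:**
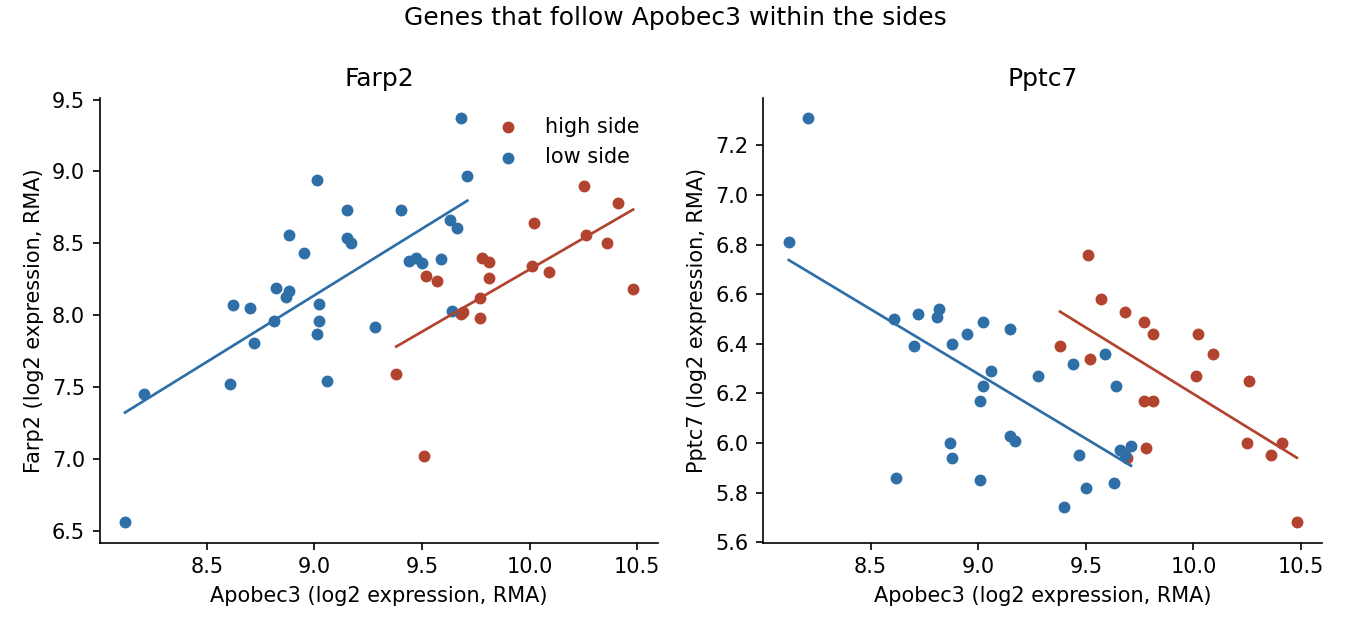
Log2 expression of Farp2 (left) and Pptc7 (right) against that of Apobec3 in each tumour, high side in red and low side in blue, with a least squares line per side. Farp2 rises (r = 0.676 and 0.723) and Pptc7 falls (r = -0.647 and -0.646) with Apobec3 on both sides. In the high side alone neither slope was called (limma adjusted p = 0.469 for Farp2 and 0.623 for Pptc7).

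Of the genes that differed between the sides, Rpl3 also rose with Apobec3 within them, by 0.14 log2 per SD (limma adjusted p = 0.00804), although it was lower on the side where Apobec3 was higher. Cbx7 (0.02, limma adjusted p = 0.784) and Ttll1 (-0.02, limma adjusted p = 0.853) were not called. The rise of Rpl3 was not called with 4 cell type scores as covariates, where none of 55 genes of the Apobec3 region was. The array mid79 had both the lowest Rpl3 (9.92) and the lowest Apobec3 (8.12) of all tumours, and its part in this slope was not tested. Over all genes 6.07% rose and 3.64% fell, and the counts that follow stand beside those shares. On chromosome 15, 65 genes rose and 20 fell of 694. None of 26 interferon response genes and none of 19 restriction factor genes was called. Of 11 deaminase genes 1, Adat2, rose (0.08, limma adjusted p = 0.0364), a share near that of all genes. Of 22 uracil and base excision repair genes 3 rose, Xrcc1 (0.15), Lig3 (0.17) and Nthl1 (0.09). Of 18 endothelial markers 11 fell, among them Robo4 (-0.28, limma adjusted p = 0.00441), Kdr and Cdh5. Of 17 luminal markers 3 rose, Cdh1, Elf5 and Erbb2, with Erbb2 by 0.24 (limma adjusted p = 0.0225). Without mid60, mid79 and mid100 none of these deaminase, repair, endothelial or luminal genes was called. mid79 had the lowest Krt8, Krt18 and Epcam of all tumours (7.33, 8.08 and 8.61) and mid60 the lowest Erbb2 (9.02), and the part of this in the slopes was not tested.

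The split did not coincide with the 2-level genes examined elsewhere in the genome. D17H6S56E-5 on chromosome 17 was high in 29 tumours, 11 of them on the high side and 18 on the low side. The gene 2610507I01Rik on chromosome 11 was high in 28 (13 and 15) and the nuclear body gene Sp100 on chromosome 1 in 15 (6 and 9). On chromosome 15 itself Faim2, 230 tested genes away, was high in 22 tumours, 8 on the high side and 14 on the low side. It was named, after its values were seen, as the most evenly divided of many chromosome 15 genes that met the rule for 2 levels. Others were Olfr284 (high in 13 tumours) and Tmem71 (high in 9), and in many only a few tumours stood apart. These divisions are counts of tumours and were not tested.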

How the data were processed

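The values are log2 expression as the authors deposited it, after RMA per the submitters' processing notes, which also name the build mm8; versions are not given in the sources used here. Per the labels, RNA was extracted with Trizol and 6 ug were labelled with biotin. The 34472 probe sets include 23521 paired with 1 gene, 1814 with several and 9137 with none. RMA gives arrays a like distribution, which hides a shift common to the majority of genes. Array medians lay between 5.19 and 5.34, 0 arrays were identical, and the number of arrays limits the precision.

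Each gene was read by its one-gene probe set with the highest mean over 50 arrays. Symbols and gene order came from a RefSeq table on GRCm38.p6, matched by Entrez identifier for 23328 probe sets (193 unmatched). Genes with a mean under 4.39, the 25th percentile, were left out. Each gene was then fitted across all genes with limma 3.58.1 (lmFit, eBayes with trend) in R 4.3.3, and p-values were adjusted by Benjamini-Hochberg, with D730005E14Rik and Apobec3 left out of the counts. mclust 6.1.1 gave mixtures, with a BIC difference over 10 for genes with 2 levels. Motif search and plots used Python 3.11.15, numpy 2.4.6, pandas 2.3.3 and matplotlib 3.10.9. The fits were tested on simulated data with independent normal noise per gene and no outlying arrays, unlike these data. Between the sides 26% of planted differences of 0.2 log2 were recovered, 66% of 0.3, 82% of 0.4 and 94% of 0.8, with 9 false calls. For genes that follow Apobec3, 29% of planted slopes of 0.1 and 70% of 0.2 were recovered, with 10 false calls. Small differences could therefore be missed.

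The split, its members and the gene lists were chosen with earlier results of these data known. Named genes were the pair, the 5 tested genes on each side of D730005E14Rik, all called genes of the comparison of sides (at most 15 on chromosome 15, and 10 in each direction elsewhere), the 10 called genes with the largest statistic in each direction that follow Apobec3, all tested deaminases, and in each other list the 3 members with the largest statistic if called; list members and genes named beside these were chosen after their values were seen. Alternatives were other filters, probe set rules and normalization, array weights, ranks, covariates, arrays left out, other splits and a continuous predictor.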

Additional observations from a re-analysis of the deposited data

Results flagged for a closer look

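One probe set that the comparisons of genes do not use, because the platform annotation pairs it with several genes, also differed between the sides. Probe set 17319339 ran from 6.49 to 7.30 on the high side (median 6.92) and from 6.08 to 7.09 on the low side (median 6.60), with means of 6.91 ± 0.19 (SD, n = 19) and 6.61 ± 0.22 (SD, n = 31). The difference was 0.30 log2 (limma adjusted p = 0.0341 over 25855 probe sets). Of 6747 tested probe sets with no single gene it was the only one called, and it is named by its identifier alone.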

How the results depend on the processing

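All 19 high-side tumours stayed on that side with the mixture midpoint, the probe set of largest SD and a second quantile normalization. The midpoint lies in the gap and D730005E14Rik has 1 probe set, so the midpoint and the probe set rule could not move a tumour. A split by Apobec3 put 29 tumours at or above its cut, these 19 among them. On other chromosomes 0 genes were called in each of 14 settings. The 3 calls of the comparison of sides, all on chromosome 15, became 0 on rank-based normal scores and 0 with a split by Apobec3, both over all genes and over chromosome 15. The limits of both settings are given above. Rpl3 turned in direction with the probe set 17319403 (0.021 log2). It was not called with the mean of its probe sets (-0.12, limma adjusted p = 1.0), the chromosome 15 level as a covariate (limma adjusted p = 0.0555) or D730005E14Rik as a continuous predictor (limma adjusted p = 0.956). The 1616 genes that follow Apobec3 became 198 without the 3 arrays of low correlation, 153 with array weights, 722 on rank-based scores, 38 with 4 cell type scores, 257 without mid60 and mid79 and 0 in the high side alone; the cause was not tested. The runs without mid60 and mid79, on 1 side alone and on single probe sets were chosen after seeing the data. The difference in chromosome 15 level stayed between -0.0140 and -0.0035 (permutation p from 0.351 to 0.662). Genes near the bottom of the scale are limited by their low signal over background. No paired analysis was possible because all tumours form 1 labelled group with no shared replicate numbers.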
